A study of Homo sapiens with 2 samples.

Results

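In C4-2B cells, transcribed regions that carry no gene symbol were described in a vehicle library and in a library from cells given the compound MA4-022-1. The regions are all rows of the expression tables whose gene name is a single dash, 2751 of 62271 rows, and each is named here by its chromosome and its positions on hg19. C4-2B is an androgen-independent cell line of castration-resistant prostate cancer that models growth in bone. One group received DMSO as vehicle and the other 2.5 µM MA4-022-1, which the labels call a BET-kinase inhibitor, for a time not given in the sources used here. Total RNA was depleted of ribosomal RNA, made into libraries and sequenced as single reads of 50 bp. Each group held 1 library of 1 line, so the differences are without a replicate check and p-values are not given.

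Much of the genome outside annotated genes is copied into RNA. Such RNA includes long noncoding RNAs, precursors of microRNAs, transcripts that run past the end of a gene and short RNAs from enhancers, and total RNA keeps those without a poly(A) tail. BET proteins bind acetylated chromatin at enhancers and promoters and help RNA polymerase II to elongate. Cufflinks, which the submitters' notes name, can assemble a transcript from aligned reads alone, and a transcript outside the annotation then has no symbol. Whether these rows arose in that way was not tested. Sequences are not printed because a genome of the build of the files was not used here.

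The cell line labels were checked on marker genes. All 10 prostate markers, among them KLK3 and HOXB13, stood at 1 RPKM (reads per kilobase of length and per unit of sequencing depth) or more in both libraries, from 34.8 to 1528 RPKM in vehicle and 31.7 to 1675 RPKM with MA4-022-1. Of 12 markers of blood, endothelium, fibroblasts, basal epithelium and bone, 2 reached 1 RPKM in both libraries and 3, among them PECAM1 and KRT5, were listed at 0 in both. Their summed level was 131 RPKM in vehicle and 70.9 RPKM with MA4-022-1, of which a row that carries the symbol of the bone gene BGLAP held 128 and 63.9 RPKM. Their part in the results was not tested.

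More of the rows without a symbol were higher than lower with MA4-022-1. The log2 ratio set RPKM + 1 with MA4-022-1 over RPKM + 1 in vehicle, and rows that reached 1 RPKM in either library were called expressed. Of 2746 expressed rows, 1017 were higher by 2-fold or more and 591 lower by as much, or 37% and 21.5%, which together made 58.6%. Among all 20501 expressed rows of the tables, 14.6% were higher and 12.2% lower, together 26.8%, and among those with a symbol 11.1% and 10.8%, together 21.9%. The median log2 ratio was 0.36 for the rows without a symbol, 0.03 over all expressed rows and 0.01 for rows with a symbol. None of the 2751 rows was at 0 in both libraries, whereas 48.8% of rows with a symbol were. Counts over rows without a symbol are therefore read as a description. Most rows held few reads, as described below, and 1 read weighed 1.36 times more with MA4-022-1. Of rows whose reads were recovered, 1268 had more in vehicle and 1225 more with MA4-022-1, uncorrected for the library totals. The part of few reads and unlike totals in the lean to higher rows was not tested. In vehicle alone 129 rows were listed at 0, and with MA4-022-1 alone 162.

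Their levels were low in most cases. The median was 3.78 RPKM in vehicle and 5.18 RPKM with MA4-022-1. The median span was 327 nt, the quartiles were 209 and 529 nt, and 44.4% spanned under 300 nt. Rows with a symbol had a median span of 30462 nt, and 8.77% of them were under 300 nt. Yet the rows without a symbol held 29.6% of all summed RPKM in vehicle and 23.3% with MA4-022-1, or 11.0% and 10.7% without a single locus of 37 nt on chromosome 2.

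Most of that share lay in a few very short loci, where RPKM depends steeply on the span. The deposited values were whole reads divided by an effective length, which is the expected number of places where a fragment of about 200 nt can start within the locus. On that scale 1 read was worth 455.5 RPKM in vehicle and 620.8 RPKM with MA4-022-1 at a locus of 37 nt, but 1.216 and 1.657 RPKM at 200 nt and 0.1233 and 0.1681 RPKM at 500 nt. The totals fitted to the values were 27142843 reads for vehicle and 19912695 for MA4-022-1, so a read weighed 1.36 times more with MA4-022-1. Whole reads came out in both libraries for 2524 of 2552 rows that had a locus under 3000 nt to themselves, or 98.9%, within 0.02 reads or 0.0015% of the read number. Those rows held 67684 and 69485 reads, 0.249% and 0.349% of the totals, against 29.45% and 23.09% of the summed RPKM. The plot of RPKM by locus span shows the steps.

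**Figure D1:**
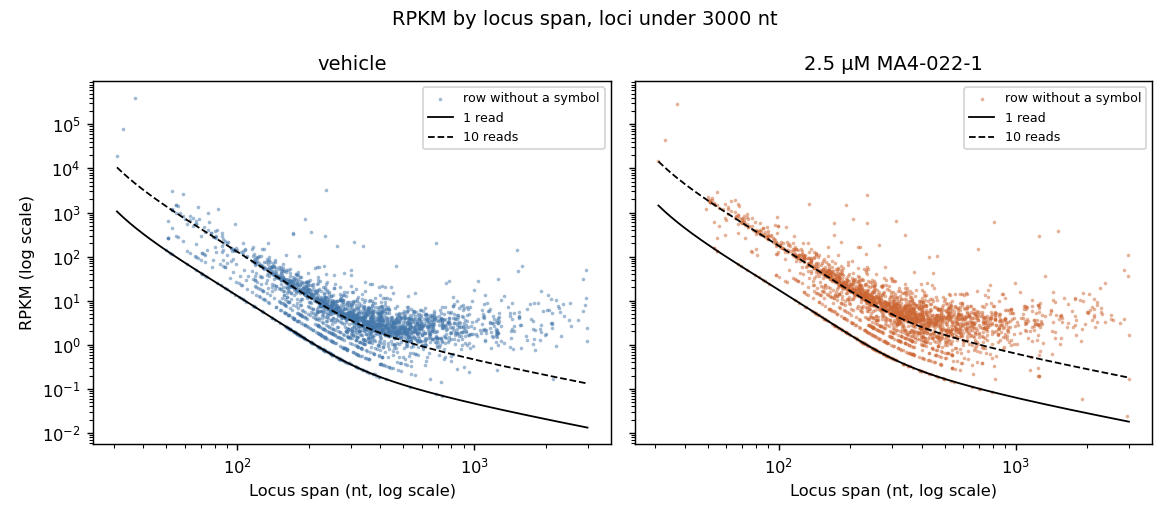
RPKM of rows without a symbol against locus span in nt, both on log scales, for loci under 3000 nt in the vehicle (left) and MA4-022-1 (right) libraries, with lines for the value of 1 read and of 10 reads. Points lie on steps above the 1-read line, and the highest RPKM belong to the shortest loci.

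The reads behind each row were few. In the library with more reads the number ran from 5 to 10144 with a median of 16, and 1500 rows, or 59.43%, held 10 to 19 reads there. The most common number was 10, with 317 rows, and 52 rows held fewer than 10. Rows under 10 reads in both libraries were thus rare, so many may be listed only through the library where they are higher. Read ratios and intervals of rows and runs do not allow for this. At least 100 reads were present in 116 rows. More reads lay in vehicle for 1268 rows, in MA4-022-1 for 1225, and 31 were equal, before the totals were taken into account.

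Among rows without a symbol, calls past 2-fold became rarer as reads increased, as the plot of ratios by reads shows. Strata of reads were chosen after the values were seen and hold expressed rows with at least 10 reads in the library with more. Of 1059 rows without a symbol with up to 19 reads over both libraries, 510 were at least 2-fold higher and 376 lower. Of 190 rows with at least 100 reads, 44 were higher and 12 lower, or 23.2% and 6.32%, and the median log2 ratio was 0.25. Among 194 rows with a symbol, a locus to themselves and at least 100 reads, 12 were higher and 19 lower, or 6.19% and 9.79%, with a median of -0.05. Most of those 19 were histone genes of the HIST1 cluster, such as HIST1H3B with 4314 and 200 reads and HIST1H4C with 3543 and 380. The rows with a symbol were not matched in kind to the rows without a symbol, and the difference was not tested.

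**Figure D2:**
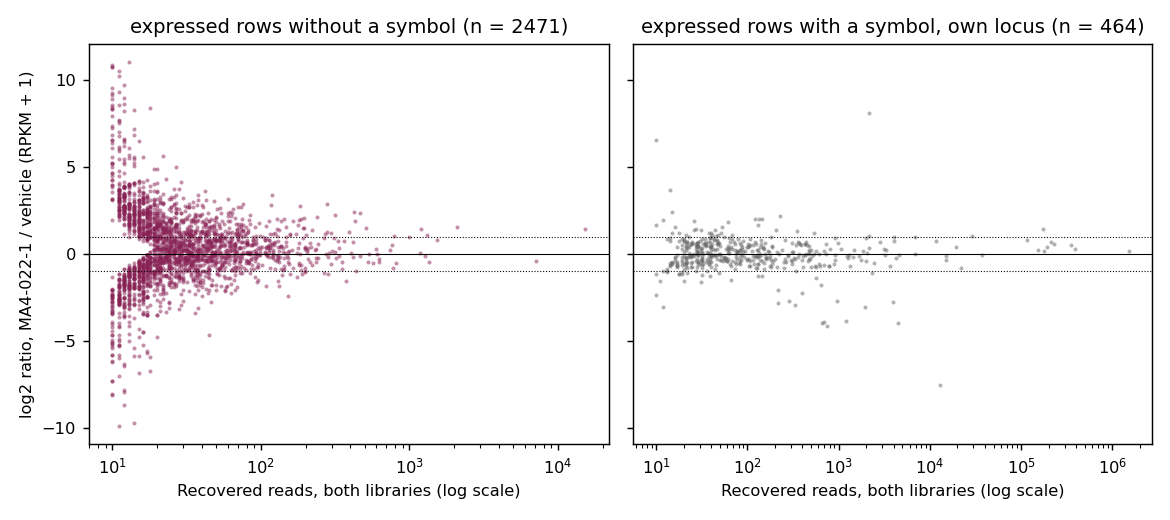
Log2 ratio of RPKM + 1, MA4-022-1 over vehicle, against recovered reads over both libraries on a log scale, for expressed rows without a symbol (left) and with a symbol and a locus of their own (right), each point 1 row and dotted lines at 2-fold. Among rows without a symbol the spread narrows with more reads, and 44 of the 190 rows without a symbol at 100 reads or more lay above the upper dotted line.

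By span, the shortest loci had the highest median ratio. Of 142 rows under 100 nt, 90 were at least 2-fold higher and 30 lower, with a median log2 ratio of 2.16, and they held 28.0% of all summed RPKM in vehicle and 21.0% with MA4-022-1. Of 1079 rows of 100 to under 300 nt, 507 were higher and 318 lower, with a median of 0.78. Rows with a symbol were past 2-fold often at these spans too, with 31 higher and 22 lower of 69 expressed rows under 100 nt (44.9% and 31.9%, median 0.43) and 117 and 104 of 382 at 100 to under 300 nt (30.6% and 27.2%, median 0.31). The 1239 rows of 300 to under 1000 nt had 331 higher and 197 lower and a median of 0.12, and the 182 rows of 1000 to under 10000 nt had 48 and 25 and a median of 0.20. In percent of expressed rows these were 26.8% and 16%, and 26.5% and 13.8%. Rows with a symbol had 9.09% higher and 12.5% lower of 440 expressed in the first class, and 6.2% and 11.5% of 1789 in the second. Few reads and short spans went together, since the median span was 218 nt for rows with up to 19 reads and 951.5 nt for those with at least 100. Their parts were not tested apart. The added 1 RPKM also shrinks ratios more at long spans, as 1 vehicle read was worth 12.8 RPKM at 100 nt and 0.04612 RPKM at 1000 nt. A row of 1909 nt on chromosome 21, from 29812786, had a log2 ratio of -1.85 by RPKM + 1 and -5.58 by reads per total. Medians of span classes are therefore not on an equal footing. The 60 rows of 10000 to under 100000 nt had 14 higher and 15 lower. The 49 rows of 100000 nt or more, which lay on 11 distinct loci, had 27 higher and 6 lower and a median of 1.26. Of the 27, 23 came from 2 loci, and with each locus counted once 5 of 11 were higher and 4 lower, with a median of 0.056. Rows with a symbol had 8.56% higher and 10.3% lower of 8930 expressed at 10000 to under 100000 nt. At 100000 nt or more they had 14.8% and 9.85% of 6145.

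The row of the highest level lay on chromosome 2, 27040287 to 27040323, a locus of 37 nt between CENPA, the gene of the centromeric histone, and CDKN2AIPNLP2. It stood at 406268 RPKM in vehicle and 292411 RPKM with MA4-022-1, which were 892 and 471 reads. The log2 ratio of reads per total was -0.47, with an exact 95% counting interval from -0.64 to -0.31. Such intervals cover counting error only, since PCR copies are not told apart. The next rows were 33 nt on chromosome 3 from 104287747, at 78632 and 43083 RPKM from 102 and 41 reads, and 31 nt on chromosome 6 from 113780593, at 19042 and 14420 RPKM from 18 and 10 reads. Next came a locus of 236 nt on chromosome 6, 27198197 to 27198432, between RP11-209A2.1 and the serine protease gene PRSS16. It stood at 3276 and 2469 RPKM from 4580 and 2532 reads, with a log2 ratio of -0.41 and an interval from -0.48 to -0.34. The other 6 of the 10 highest rows outside the mitochondrion spanned 53 to 68 nt and held 3 to 35 reads in either library.

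The 8 highest ratios among rows above 0 in both libraries and at 5 RPKM or more in 1 of them ran from 4.12 to 4.30. All 8 rested on 1 or 2 reads in vehicle against 13 to 27 with MA4-022-1. The highest lay on chromosome 10, 124949842 to 124950018, at 1.83 and 54.8 RPKM from 1 and 22 reads. Its log2 ratio of reads per total, without the added 1 RPKM, was 4.91, with an interval of 2.28 to 10.27. The lowest ratio was -3.62 on chromosome 9, 35592964 to 35604051, a locus of 11088 nt at 97.1 RPKM in vehicle and 6.97 RPKM with MA4-022-1. Here past and before mean at higher and lower coordinates than a locus, whatever the strand. It began 15 nt past RP11-156G14.6 and ended 1315 nt before the kinase gene TESK1. The other 7 of the lowest held 15 to 19 reads in vehicle and 1 with MA4-022-1. Among rows at 0 in vehicle, the 4 highest stood at 1755 to 2127 RPKM with MA4-022-1, from 10 to 13 reads. Set against a floor of 3 reads per library, they were at least 4.54-fold to 5.91-fold higher. The 4 highest in vehicle with no reads in MA4-022-1 stood at 271 to 952 RPKM from 10 to 14 reads. Against the same floor of 3 reads they were 2.45-fold to 3.42-fold lower. The upper limits of their intervals were log2 ratios of -1.28 to -0.72. On chromosome 15, 99071875 to 99072686 was listed at 0 in vehicle and at 610 RPKM with MA4-022-1, where the value was not a whole number of reads, so no fold is given.

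Rows with many reads give firmer ratios, and the following were chosen after their values were seen. A locus of 311 nt on chromosome 6, 27655959 to 27656269, between RP1-15D7.1 and RP1-97D16.1, stood at 216 and 634 RPKM from 659 and 1421 reads, with a log2 ratio of reads per total of 1.56 (1.42 to 1.69). On chromosome 5, 107006869 to 107008201 began 272 nt past EFNA5, the gene of an ephrin ligand, and held 384 and 811 reads, a ratio of 1.53 (1.35 to 1.70). A row of 1911 nt that began 122 nt past WASL, a regulator of actin branching, held 761 and 510 reads, with a ratio of -0.13 (-0.30 to 0.03). On chromosome 4, 6680991 to 6681433 held 8 and 110 reads, and on chromosome 17, 7737577 to 7739014, which lay 100 nt past DNAH2 and 3805 nt before the histone demethylase gene KDM6B, 75 and 389. At the other end, 29812786 to 29814694 on chromosome 21 held 130 and 2 reads and 136871801 to 136873091 on chromosome 6, which began 154 nt past the MAP7 locus, 309 and 63.

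By chromosome, rows without a symbol were not evenly placed. Chromosome 2 held 247, chromosome 1 held 245 and chromosome 3 held 238. Per 100 expressed rows with a symbol there were 24.0 on chromosome 21, 23.8 on chromosome 3 and 22.7 on chromosome 2, against 5.23 on chromosome 19, which is dense in genes. On chromosome 2, 126 of 247 expressed rows were at least 2-fold higher and 29 lower, while rows with a symbol there had a median of -0.02. On chromosome 11 the counts were 80 and 22 of 165, and on the X chromosome 45 and 18 of 82. Lower rows were the more numerous on chromosome 20, with 7 higher and 23 lower of 55, on chromosome 10, with 28 and 37 of 113, on chromosome 18, with 8 and 12 of 36, and on chromosome 8, with 41 and 43 of 117. Rows with a symbol had 104 higher and 113 lower of 1088 expressed on chromosome 2, and 151 and 117 of 1029 on chromosome 11. They had 51 and 51 of 565 on the X chromosome, and 36 and 57 of 422 on chromosome 20. On chromosome 10 they had 72 and 79 of 685, on chromosome 18 38 and 38 of 313, and on chromosome 8 77 and 72 of 657. Rows that lie side by side in runs weigh on the counts of rows without a symbol. Without its largest run, chromosome 2 had 49 higher and 29 lower of 153 rows and a median that turned from 1.12 to -0.044, and the X chromosome 22 and 18 of 54 and a median of 0.24 in place of 1.32. Among runs of at least 9 rows on chromosome 8, that from 67111664 was lower in all 14 rows. Those from 134448317, 135819882 and 81441140 had 12, 6 and 3 higher rows, and the last 1 lower. On chromosome 20, a run of 8 rows from 56286972 held 6 of the lower rows and none of the higher.

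**Figure D3:**
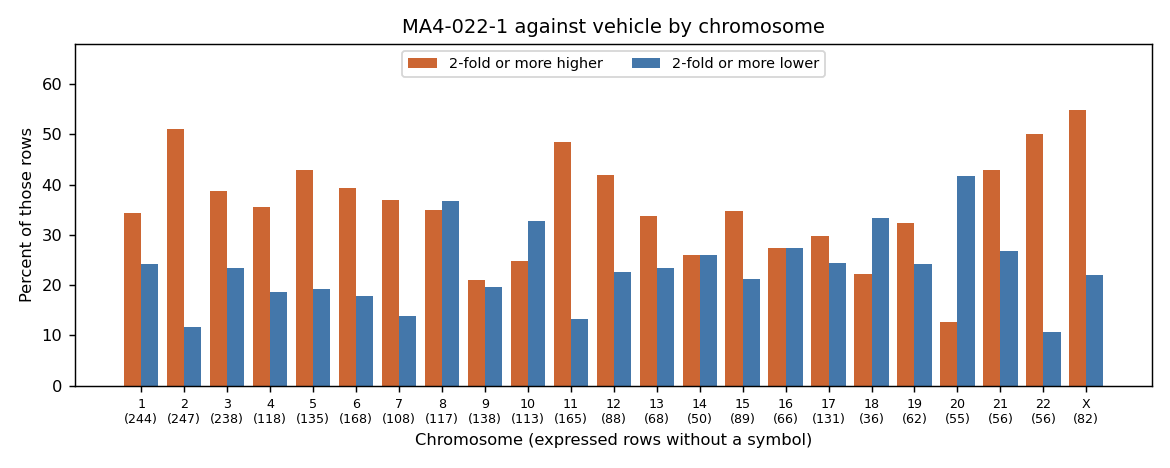
Percent of expressed rows without a symbol that were at least 2-fold higher (orange) or lower (blue) with MA4-022-1, for chromosomes 1 to 22 and X, with the number of such rows in brackets. Chromosome 2 stood at 51% higher and 11.7% lower, and chromosome 20 at 12.7% and 41.8%.

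Sequences without a position on a chromosome, 17 in all, held 113 rows, 32 of them at least 2-fold higher and 18 lower of 110 expressed. The sequence Un_gl000220, known to carry copies of the ribosomal RNA repeat, had 5 rows with 634 reads in vehicle and 245 with MA4-022-1, 2 of them lower and none higher. The sequence 7_gl000195_random had 15 rows, 6 of them lower and none higher, and 6 rows with recovered reads held 648 and 296. Others went the opposite way, with 5 higher and none lower of 8 on Un_gl000218, 5 and none of 13 on 4_gl000193_random, 3 of 3 higher on 4_gl000194_random, and 8 higher and 4 lower of 20 on Un_gl000214. Rows with a symbol on sequences without a position, the sequence named MT counted among them, numbered 5130. All of these were listed at 0 in both libraries, and none lay on the 17 sequences. The Y chromosome held 1 row.

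The mitochondrial chromosome held 5 rows at 3 loci, and all 5 were higher with MA4-022-1. Its genome codes for the ribosomal RNAs and transfer RNAs of the organelle and for subunits of the respiratory chain, and both strands are copied into long precursors. The locus from 1 to 1511 stood at 143 RPKM in vehicle and 389 RPKM with MA4-022-1, from 5081 and 10144 reads, with a log2 ratio of reads per total of 1.44 (1.40 to 1.49). It held the most reads of all rows without a symbol whose reads were recovered. The locus from 1608 to 4572 carried rows at 49.03 and 107 RPKM and at 11.6 and 37.1 RPKM, and the locus from 4625 to 16571 rows at 109 and 253 RPKM and at 54.2 and 112 RPKM. The folds of the 5 rows lay between 2.05 and 3.03. Their sum was 367 RPKM in vehicle and 898 RPKM with MA4-022-1, or 2.45-fold higher, and made up 0.0188% and 0.0434% of all summed RPKM. All 33 rows with a symbol on the sequence named MT were listed at 0 in both libraries. The 5 rows without a symbol lay on a sequence of another name, M. Those zeros therefore cannot tell whether the genes were silent, and the 5 rows need not lie outside annotated genes. Rows of 1 locus share its reads and are not independent of each other.

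Sharing a locus with a named gene was rare. In 84 rows, at 33 loci, the same locus also carried rows with a symbol, 2549 lay apart from every row with a symbol, and 118, the mitochondrial rows among them, lay on sequences where no row with a symbol was placed. Of the 84, 38 were at least 2-fold higher and 11 lower, or 45.2% and 13.1%, with a median log2 ratio of 0.85. Their levels had a median of 2.76 and 5.08 RPKM. The rows that shared no locus had 979 higher and 580 lower of 2662 expressed, or 36.8% and 21.8%, and a median of 0.31. Over all 20501 expressed rows the shares were 14.6% and 12.2%. A few loci carried most of the shared rows, so that with each locus counted once by the mean of its rows, 13 of 33 were higher and 7 lower, with a median of 0.40.

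The locus of UBE2E3, a ubiquitin-conjugating enzyme, on chromosome 2 carried 14 rows, 8 higher and none lower, with a median of 1.27, while UBE2E3 stood at 13.7 and 12.7 RPKM. The row in the locus of the RNA helicase DDX6 stood at 153 and 150 RPKM, the highest of the shared rows, against 65.7 and 54.3 RPKM for DDX6. In the locus of SLC38A2, an amino acid transporter, the row stood at 4.64 and 17.1 RPKM and SLC38A2 at 144 and 310 RPKM. The row in the locus of the zinc finger gene ZNF165 stood at 20.4 and 36.3 RPKM against 6.91 and 5.54 RPKM for ZNF165, so the row and its gene differed in direction. Among 3 rows in the locus of KPNA1, which encodes a nuclear import factor, the highest stood at 9.62 and 26.2 RPKM, and the rows of KPNA1 at 40.5 and 35.9 RPKM and 7.52 and 13.9 RPKM. On chromosome 6, 28368022 to 28411279, the row of the higher mean stood at 9.71 and 12.3 RPKM beside ZSCAN23 at 7.04 and 14.6 RPKM. In the locus of the cohesin gene STAG2 and its neighbours on the X chromosome, all 3 rows were lower, with a median of -1.59. That locus spanned 1226458 nt, and its 4 expressed rows with a symbol had a median of 0.01.

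Distance to named genes was described for the 2549 rows apart from them, in classes chosen after the values were seen. The median distance to the nearest row with a symbol was 2731 nt, and 81.0% lay within 10000 nt. Of 722 expressed rows within 1000 nt, 199 were at least 2-fold higher and 153 lower (27.6% and 21.2%), with a median log2 ratio of 0.08. Of 353 rows at 10000 to 50000 nt, 163 were higher and 84 lower (46.2% and 23.8%), with a median of 0.77. Of 131 rows farther away, 80 were higher and 20 lower (61.1% and 15.3%), with a median of 1.35. The shares were 37% and 21.5% over all expressed rows without a symbol, and 14.6% and 12.2% over all 20501 expressed rows. With at least 50 reads, the medians were 0.13 within 1000 nt over 184 rows, 0.24, 0.44 and 0.99 in the next classes and 1.15 beyond 50000 nt over 21 rows. Neighbouring rows are not independent, and a single run of 94 rows on chromosome 2, described further on, held 52 rows of the class from 10000 nt and 36 of the farthest. Without it the median was 0.27 from 10000 nt, with 119 higher and 84 lower of 301, and 1.30 from 50000 nt, with 51 and 20 of 95. With at least 50 reads and without that run, the medians were -0.40 over 32 rows and 0.54 over 9 rows in those classes.

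Rows without a symbol often lay side by side. Rows less than 10000 nt apart were joined to runs, a rule chosen after the values were seen, which gave 475 runs of at least 2 rows with 1687 rows and 80 runs of at least 5 with 691 rows. In those 80 runs, 337 of the 691 rows were at least 2-fold higher and 127 lower. Of the runs, 29 had a median log2 ratio of 1 or more and 17 of -1 or less. Outside those 80 runs, 605 rows were higher and 435 lower of 1858. Over all expressed rows without a symbol, 37% were higher and 21.5% lower, and over all 20501 expressed rows 14.6% and 12.2%. Of the 20 runs of at least 9 rows, 5 had every row at least 2-fold higher and 1 every row at least 2-fold lower. The plot of runs shows 19 of them and leaves out 1 of the 5.

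**Figure D4:**
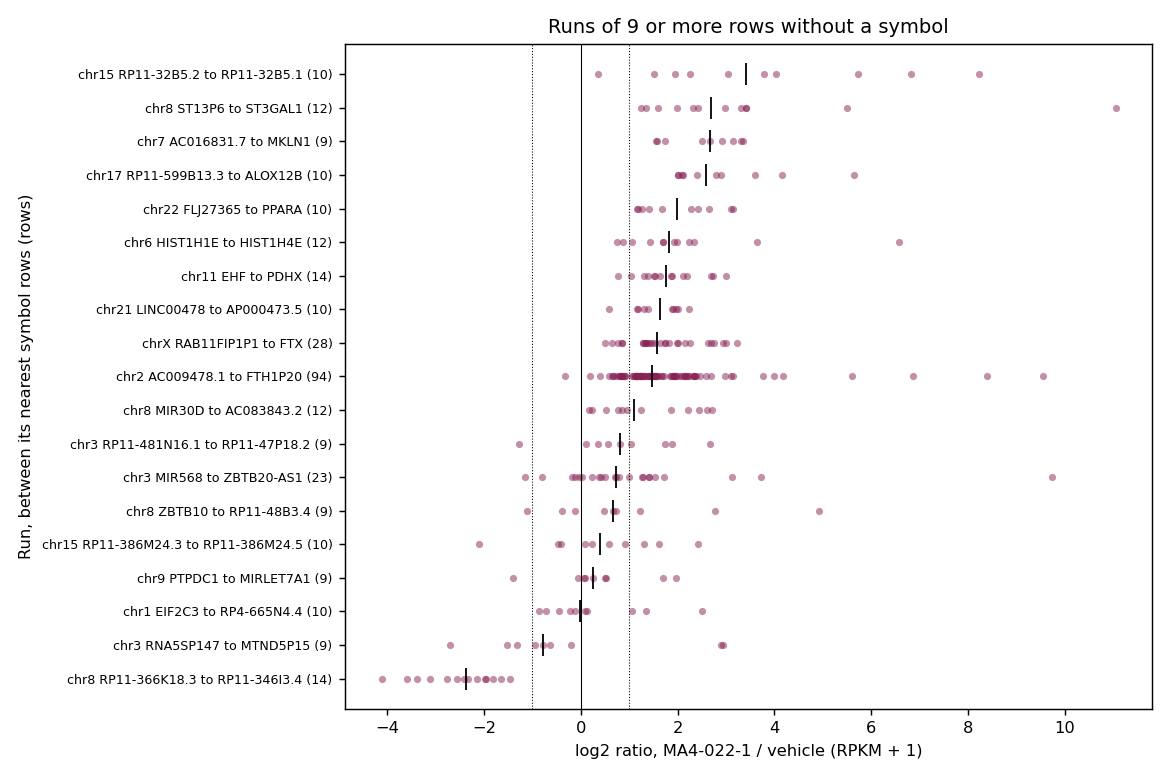
Log2 ratios of RPKM + 1, MA4-022-1 over vehicle, of each row (points) and the median (bar) in 19 runs of at least 9 rows without a symbol, named by the nearest symbol rows on either side, with the number of rows in brackets and dotted lines at 2-fold. The run at the bottom has all 14 rows below the lower line, and 4 of the runs have every row above the upper line.

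The largest run lay on chromosome 2, 181558837 to 181735066, over 176.2 kb, and began 75 nt past the AC009478.1 locus. It held 94 rows, 77 of them at least 2-fold higher and none lower, with a median log2 ratio of 1.48 and median levels of 1.95 RPKM in vehicle and 7.49 RPKM with MA4-022-1. Over 93 rows, 1741 reads in vehicle stood against 4497 with MA4-022-1, a log2 ratio of reads per total of 1.82 (1.74 to 1.90). The first row, 181558837 to 181560606, stood at 3.43 and 11.7 RPKM from 146 and 367 reads, and another row, 181561295 to 181563205, at 1.92 and 9.96 RPKM from 89 and 339 reads. AC009478.1 had rows at 52.96 and 152, 2.35 and 7.50, and 20.6 and 32.1 RPKM, and FTH1P20 past the other end stood at 2.55 and 5.65 RPKM. In GENCODE release 29, which is on GRCh38, SCHLAP1 lies between AC009478.1 and FTH1P20, and that symbol does not occur among the rows. SCHLAP1 is a long noncoding RNA known from aggressive prostate cancer. Whether the run is its transcript was not tested, since positions were not converted between builds. The UBE2E3 locus with its 14 rows lay past FTH1P20, 181764129 to 181928193.

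**Figure D5:**
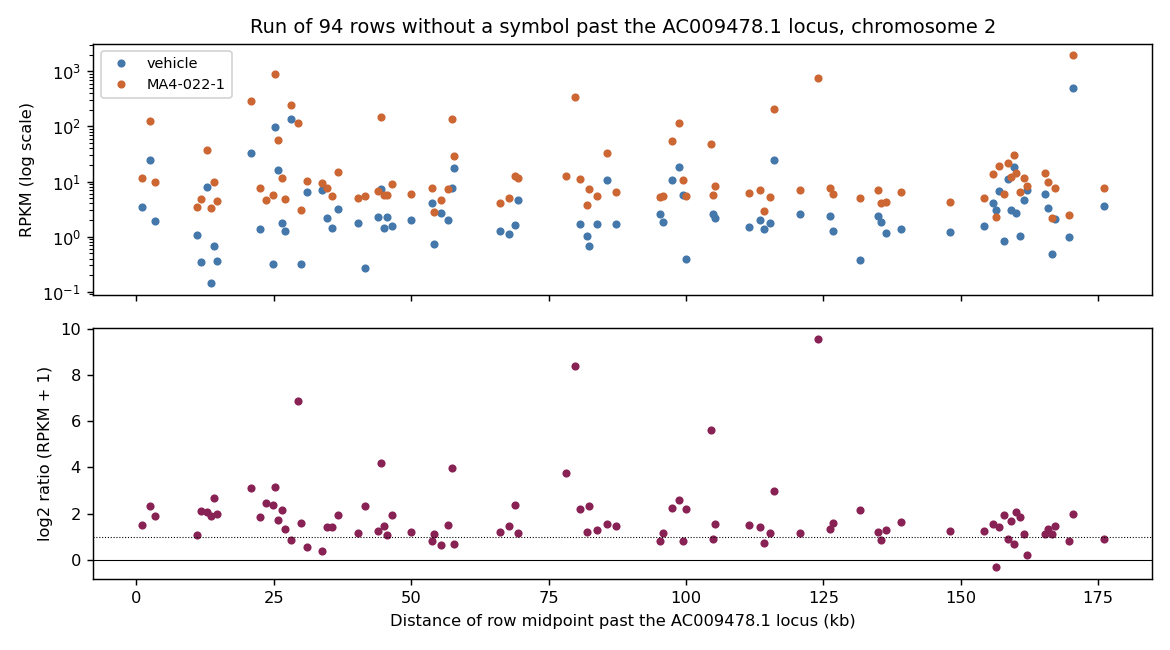
RPKM on a log scale (top) and log2 ratio of RPKM + 1 (bottom) of the 94 rows of the run past the AC009478.1 locus on chromosome 2, against the distance of the row from that locus in kb, for vehicle (blue) and MA4-022-1 (orange), with values listed at 0 left out of the top panel and a dotted line at 2-fold. Of the 94 rows, 93 had a ratio above 0, and 77 lay at 2-fold or more.

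Other runs that were higher also lay next to known genes or noncoding RNAs. On the X chromosome, 73424912 to 73465154, 23 of 28 rows were higher and none lower, from 268 and 773 reads (log2 ratio 1.98, 1.77 to 2.18). That run ended 2544 nt before FTX, a noncoding RNA of the X inactivation centre that stood at 12.01 and 27.3 RPKM. On chromosome 17, 7967618 to 7975552, all 10 rows were higher, from 196 and 1143 reads (2.99, 2.77 to 3.22), next to the lipoxygenase gene ALOX12B, whose main row stood at 54.8 and 740 RPKM. On chromosome 11, 34686597 to 34707231, 13 of 14 rows were higher, and the 7 rows with recovered reads held 100 and 404 (2.46, 2.14 to 2.79), from 1564 nt past EHF, an epithelial transcription factor at 293 and 508 RPKM. The spans of those 14 rows came to 60933 nt in a run of 20.6 kb, so some rows overlap and are not independent. A run of 12 rows before ST3GAL1, a sialyltransferase at 82.9 and 168 RPKM, was higher in all 12, from 27 and 305 reads.

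Further runs lay by microRNA host genes, coding genes and the histone cluster. On chromosome 22, 46512313 to 46521670, all 10 rows were higher, from 53 and 206 reads. They lay between FLJ27365, at 52.6 and 183 RPKM, and PPARA, a nuclear receptor of lipid metabolism at 3.18 and 13.045 RPKM, where GENCODE release 29 places the host gene of the let-7b microRNA. On chromosome 21, 17984507 to 18002519, 9 of 10 rows were higher, from 181 and 531 reads, past LINC00478, the host of MIR99A, at 75.05 and 108 RPKM. On chromosome 6, 26174526 to 26204570, among the histone genes, 10 of 12 rows were higher, and 8 rows with recovered reads held 102 and 452. HIST1H4E at its end stood at 53.8 and 24.3 RPKM, whereas LARP1P1 before its start stood at 0.772 and 24.7 RPKM.

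Lower runs held fewer rows. The largest, of 14 rows on chromosome 8, 67111664 to 67133384, was lower in all 14, with a median of -2.37, and 13 rows with recovered reads held 242 in vehicle and 4 with MA4-022-1 (-5.47, -7.36 to -4.10). Its rows may be listed only through their vehicle reads, which the interval does not allow for. The run began 2113 nt past RP11-366K18.3, a row at 0.436 and 1.18 RPKM. On chromosome 20, 56286972 to 56302973, 6 of 8 rows were lower, and 7 rows with recovered reads held 213 and 57 (-1.45, -1.90 to -1.03). That run began 56 nt past PMEPA1, an inhibitor of TGF-beta and androgen signalling with a main row at 54.5 and 17.9 RPKM. On chromosome 10, 62557255 to 62565713, 4 of 5 rows were lower, from 101 and 15 reads, 2003 nt past the cell cycle kinase gene CDK1 at 183 and 37.3 RPKM. On chromosome 3, 154903970 to 154910976, all 5 rows were lower, from 101 and 9 reads, 2320 nt past MME, the gene of neprilysin, at 871 and 271 RPKM. On chromosome 21, 44851200 to 44857743, all 6 rows were lower, from 122 and 4 reads, while the kinase gene SIK1 4191 nt away stood at 1.77 and 1.51 RPKM. On chromosome 16, 82258310 to 82265060, 6 of 7 rows were lower, and 6 rows with recovered reads held 125 and 10, in a run that began 31914 nt past the nearest row with a symbol, a 7SK copy.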

How the data were processed

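Per the file headers, the authors deposited 1 table of RPKM per library, with a locus and a gene name per row. The alignment and assembly tools were TopHat2 2.0.13 and Cufflinks 2.2.1, on hg19, per the submitters' processing notes. Strand handling was not given in the sources used here, so a row and an antisense gene cannot be told apart. Members and lists were chosen with earlier results of these data known.

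RPKM of loci under 3000 nt were turned into reads with an effective length from a normal fragment length (mean 200, SD 80 nt), whose bounds and library totals were fitted to the values. This step was tested on data simulated from the same fragment model, so the test cannot tell whether that model holds for the deposited values. Ratios used a pseudocount of 1 RPKM, a minimum of 1 RPKM in at least 1 library and a threshold of 2-fold, and no count test was run, as 1 library per group leaves none. Intervals are exact (Clopper-Pearson, 95%).

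Named were all mitochondrial rows, the 10 highest means elsewhere, the 8 highest and 8 lowest ratios with at least 5 RPKM in 1 library and above 0 in both, the 4 highest in each library at 0 in the other, and the 8 highest means that shared a locus. A few items are not reported here. Others were chosen after their values were seen. Python 3.11.15, numpy 2.4.6, pandas 2.3.3, scipy 1.17.1 and matplotlib 3.10.9 were used. GENCODE release 29 served for the order of neighbours only. Alternatives were other pseudocounts, filters, scalings and thresholds.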

Additional observations from a re-analysis of the deposited data

How the results depend on the processing

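With a pseudocount of 5, 657 rows without a symbol were at least 2-fold higher and 285 lower, with a median log2 ratio of 0.19, and with 0.1 the median was 0.44. With 1 RPKM required in both libraries, 291 were lower, and with 5 RPKM in 1 library the median was 0.88. A threshold of 4-fold left 515 higher and 253 lower. Scaling to the housekeeping genes moved the median of all expressed rows to 0.13 and that of the rows without a symbol to 0.45. Of alternatives chosen after seeing the data, at least 50 reads left 118 higher and 38 lower of 489 rows, with 75.6% of those beyond 2-fold higher against 63.2% of all, and without runs of at least 5 the median was 0.16. Without the largest run, chromosome 2 had 49 higher and a median of -0.044, the class from 10000 nt a median of 0.27 and that from 50000 nt 51 higher. Without its largest run, the X chromosome had 22 higher and a median of 0.24. The share of summed RPKM fell to 11.0% and 10.7% without the chromosome 2 locus of 37 nt, and to 0.593% and 0.766% without loci under 300 nt. With each locus counted once, the shared loci had 13 higher and 7 lower with a median of 0.40, loci of 10000 to under 100000 nt had 9 higher and 9 lower, those of 100000 nt or more had 5 higher with a median of 0.056, and 3 of 3 mitochondrial loci were higher. Of 395 values of the 79 named rows under other pseudocounts and scalings, 76 moved by more than a margin taken from their counting interval or, without one, by over 0.1. The causes of these shifts were not tested. No paired analysis was possible because each group held 1 library. Few reads limit most rows, since 16 reads against 1 gave a log2 interval from -8.94 to -0.87.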
